A study of Mus musculus with 40 samples.

Results

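PAX5-P80R and PAX5-G183V are altered forms of the transcription factor PAX5 that change different parts of the protein, and their effects on gene expression were set against each other in 13 of the 40 arrays of the series. The arrays were chosen by the construct named in their titles, 6 for PAX5-P80R and 7 for PAX5-G183V. All hold total RNA of J558LuM, a mouse plasmacytoma line, and the groups are named for the construct that was transduced. The P80R change lies in the paired domain, the part of PAX5 that binds DNA, and the G183V change lies in the octapeptide, a short motif through which PAX5 recruits co-repressors. For orientation, values are also given for PAX5-Δ2-6 (6 arrays), for wild-type PAX5 (PAX5-WT, 7 arrays) and for the empty vector (MIR, 7 arrays). The 7 arrays of PAX5-G183S, whose name puts its change at the same residue as G183V, entered the fit and its estimate of the spread, and their values are not described. The labels do not spell out what Δ2-6 stands for, nor the promoter of the vector.

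PAX5 commits lymphoid progenitors to the B cell lineage and maintains that identity until the gene is shut off in plasma cells. It raises genes of the B cell surface and of B cell receptor signalling, and it lowers genes of other lineages and of the plasma cell. Repression involves Groucho proteins, which bind the octapeptide, whereas both activation and repression need the paired domain to reach DNA. A plasmacytoma is a plasma cell tumour, so a PAX5 construct put into such cells meets a genome in which B cell genes are largely silent.

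Each array came from a transduction of its own. All arrays come from 1 cell line, and the error terms behind the p-values therefore reflect differences among its transductions. The PAX5-P80R arrays all lay on plate 2, with transductions 1 to 3 in RNA isolation batch 1 and transductions 48 to 52 in isolation batch 2. Of the PAX5-G183V arrays, 3 were in isolation batch 1 (transductions 7 to 9) and 4 in isolation batch 2 (transductions 46 to 50), and 4 of the 7 lay on plate 1. The PAX5-Δ2-6 arrays came from the same runs of transduction numbers (4 to 6 and 53 to 57), while the PAX5-WT and MIR arrays had other numbers (34 to 43 and 58 to 63). Levels are log2 signals, so 1 unit is a doubling of signal. Array medians lay between 4.21 and 4.27, and low signals near 3 to 4 are close to the floor of the scale, where a fold change is understated. A difference is PAX5-P80R minus PAX5-G183V from a limma fit with terms for plate and isolation batch, with its standard error, and genes with an adjusted p under 0.05 were called. With 6 and 7 arrays the median standard error of a difference was 0.0860.

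The check of the line and of the construct came first. The plasma cell genes that were measured had a mean level between 10.18 and 10.28 in the PAX5-P80R arrays and between 10.06 and 10.22 in the PAX5-G183V arrays, far above the markers of other cells. For 13 T cell markers the mean level lay between 4.44 and 4.57 in PAX5-P80R and between 4.44 and 4.56 in PAX5-G183V, and none was called. Likewise none of 14 myeloid, 9 erythroid or 14 fibroblast markers was called (at an unadjusted p under 0.05, 2 T cell, 2 myeloid, 0 erythroid and 2 fibroblast markers). The markers with the largest difference in size in these lists were Cd3d of T cells (-0.32 ± 0.12, adjusted p = 0.133), Cd68 of myeloid cells (0.22 ± 0.08, adjusted p = 0.0917), Klf1 of erythroid cells (0.22 ± 0.12, adjusted p = 0.339) and Vim of fibroblasts (0.63 ± 0.24, adjusted p = 0.132). For Cd68, which was bright in both groups, every PAX5-P80R array lay above every PAX5-G183V array, and its part in the results was not tested. Vim was called in isolation batch 2 with each group and batch given its own level (1.04 ± 0.24, adjusted p = 0.00609). Pax5 itself had levels of 4.53, 4.95 and 5.41 (lowest, median and highest) in PAX5-P80R and of 4.75, 4.85 and 5.11 in PAX5-G183V. The groups overlapped, and the difference was 0.20 ± 0.17 (adjusted p = 0.583). MIR arrays gave 4.19 to 4.63, and the sources used here do not say whether the probe set matches the transduced sequence, so the amounts of construct could not be compared. Cd79a, the signalling chain of the B cell receptor and a textbook PAX5 target, stayed low with both constructs, at 4.17, 4.31 and 4.57 in PAX5-P80R and 4.00, 4.25 and 4.50 in PAX5-G183V (difference 0.07 ± 0.09, adjusted p = 0.758).

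Of 17097 genes tested, 728 were called between the constructs (4.26%). Of these, 280 were higher (1.64%) and 448 lower (2.62%) in PAX5-P80R. At an unadjusted p under 0.05 there were 2952 genes (17.3%). Most differences were small: 87 of the 728 genes differed at least 1.5-fold, 32 higher and 55 lower, and 9 higher and 10 lower genes differed at least 2-fold. All PAX5-P80R arrays lay above all PAX5-G183V arrays for 150 genes (0.877%) and below them for 184 (1.08%), and 254 of these 334 genes were among the 728. On plate 2 alone, where all PAX5-P80R arrays lie, 266 genes were called, 251 of them among the 728. Across all genes the median difference was -0.01; RMA aligns the arrays, so this value is set largely by the processing.

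**Figure D1:**
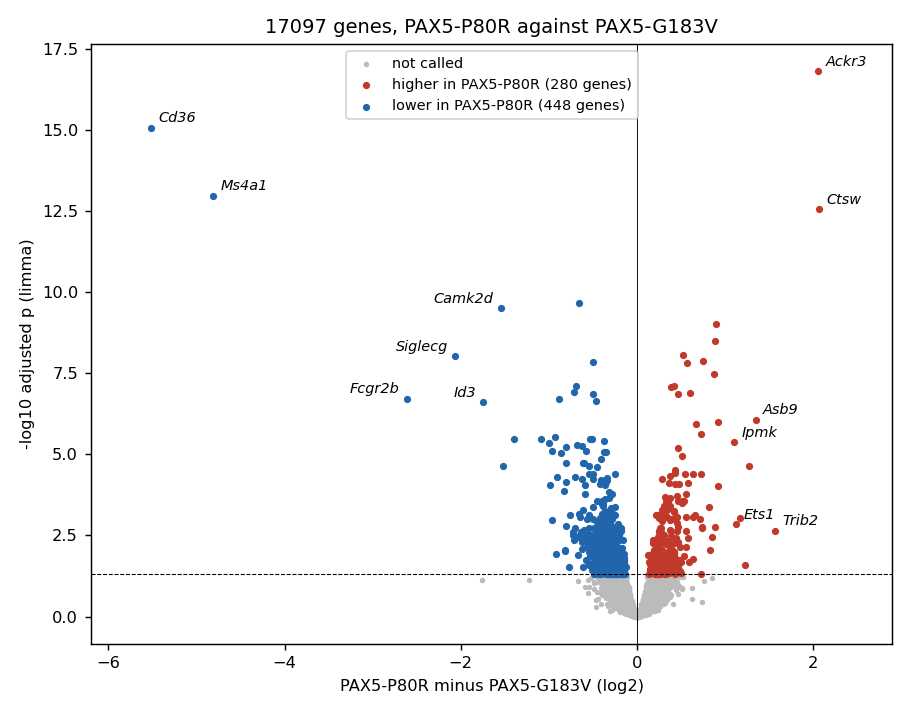
Difference between PAX5-P80R and PAX5-G183V (x axis, log2) against the minus log10 of the limma adjusted p (y axis) for 17097 genes, 1 point a gene. The dashed line marks an adjusted p of 0.05. The 448 genes lower in PAX5-P80R are blue and reach -5.51 for Cd36, while the 280 higher genes are red and reach 2.06 for Ackr3 and Ctsw.

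The largest differences were in surface genes that wild-type PAX5 turns on in this line. Cd36, which takes up long-chain fatty acids as a scavenger receptor, had levels of 3.76, 3.79 and 3.85 in the PAX5-P80R arrays of isolation batch 1 and of 5.51, 5.53 and 5.73 in those of isolation batch 2. In the PAX5-G183V arrays it had 9.55, 9.69 and 9.91 in isolation batch 1 and 10.51, 10.66, 10.69 and 10.77 in isolation batch 2. The groups were far apart in both batches, by -5.51 ± 0.31 over all (adjusted p = 8.40e-16). PAX5-WT arrays spanned 9.86 to 10.65, which covers much the same levels as PAX5-G183V. In RNA of whole cultures, fewer cells with the transcript and less transcript per cell cannot be told apart. PAX5-Δ2-6 arrays spanned 3.29 to 3.84, and MIR arrays 3.56 to 3.85 apart from 1 at 5.89. PAX5-P80R was called above PAX5-Δ2-6 for Cd36 (1.03 ± 0.30, adjusted p = 0.0425), with a level off the floor in isolation batch 2 alone.

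Ms4a1, which encodes the B cell surface antigen CD20, was at 3.54, 3.89 and 4.32 in PAX5-P80R and at 7.93, 9.25 and 9.46 in PAX5-G183V. No PAX5-P80R array came near the lowest PAX5-G183V array, and the difference was -4.81 ± 0.31 (adjusted p = 1.03e-13). PAX5-P80R did not differ from PAX5-Δ2-6 beyond error (0.20 ± 0.30, adjusted p = 0.871), while PAX5-G183V lay 5.01 ± 0.31 above PAX5-Δ2-6. PAX5-WT arrays had 8.49 to 9.73 and MIR arrays 3.23 to 4.08. Siglecg, an inhibitory sialic acid receptor of B cells, showed the same order, with 4.49, 4.69 and 5.49 in PAX5-P80R and 6.09, 6.93 and 7.43 in PAX5-G183V. Its groups did not overlap (-2.06 ± 0.21, adjusted p = 9.48e-09).

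**Figure D2:**
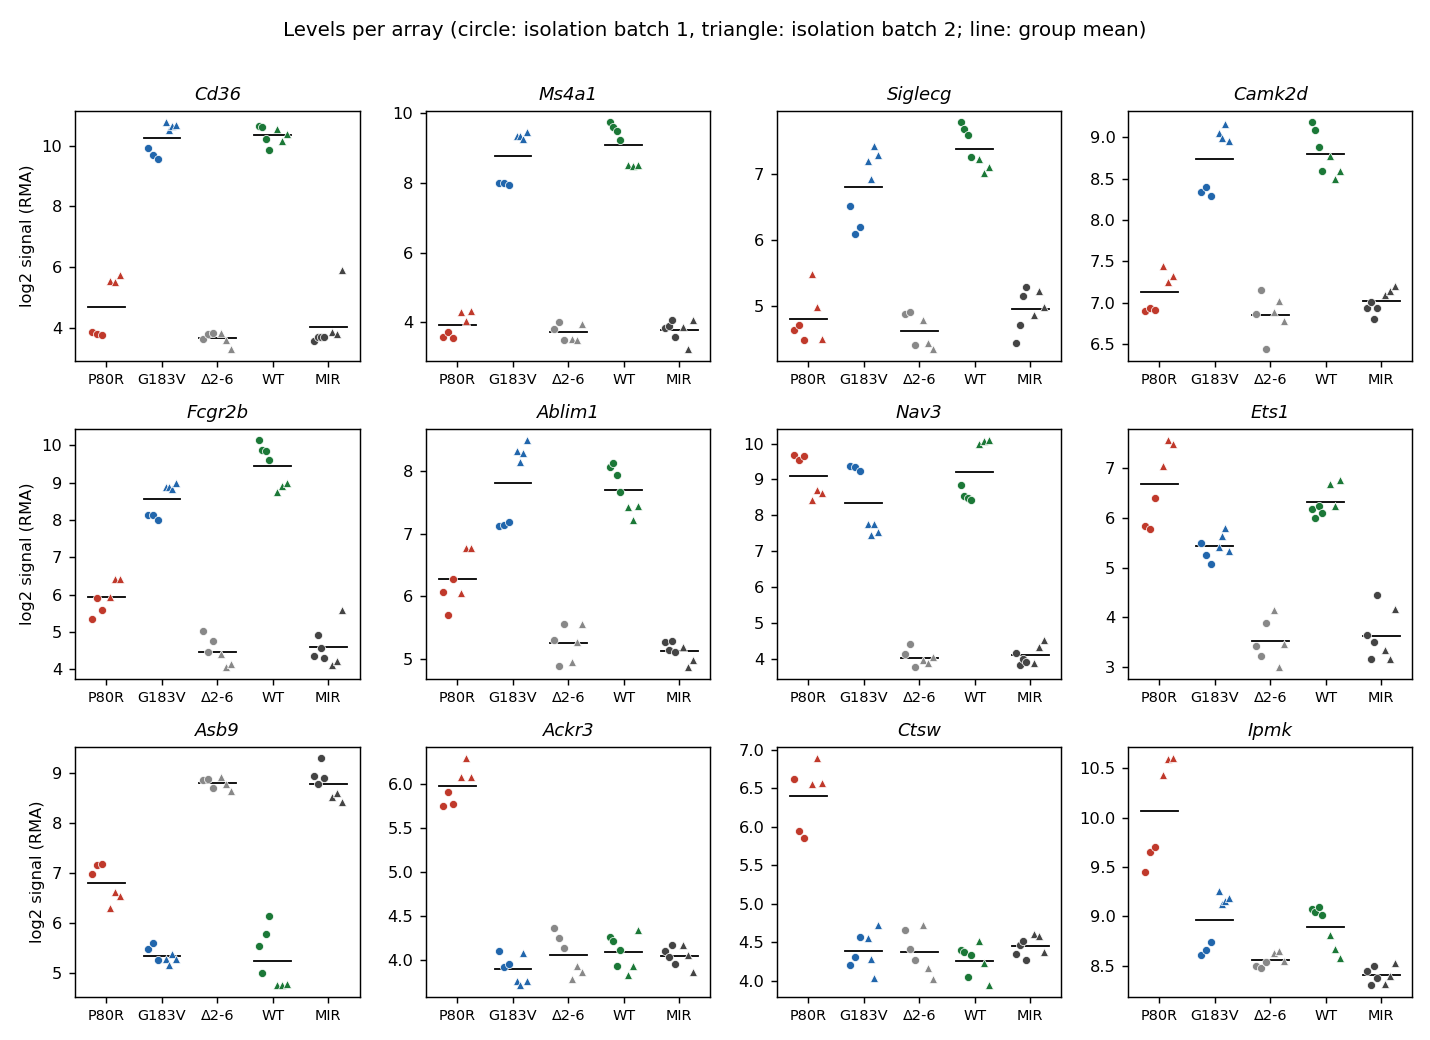
Levels (log2 signal) of 12 genes in each array of PAX5-P80R, PAX5-G183V, PAX5-Δ2-6, PAX5-WT and MIR; points are arrays and bars are group means. Cd36, Ms4a1, Siglecg and Camk2d are high in PAX5-G183V and PAX5-WT, whereas Ackr3, Ctsw and Ipmk are highest in PAX5-P80R.

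Other genes of this kind encode signalling and cytoskeletal proteins. Camk2d, a calcium and calmodulin dependent kinase, had 6.90, 7.09 and 7.45 in PAX5-P80R and 8.29, 8.95 and 9.16 in PAX5-G183V. The difference was -1.54 ± 0.13 (adjusted p = 3.04e-10), without overlap. Fhod3, a formin that assembles actin filaments, was at 4.44, 4.61 and 4.86 in PAX5-P80R and at 5.67, 6.12 and 6.41 in PAX5-G183V, a difference of -1.40 ± 0.19 (adjusted p = 3.24e-06). For both genes PAX5-P80R was not called apart from PAX5-Δ2-6, with 0.27 ± 0.13 for Camk2d and 0.34 ± 0.18 for Fhod3. Bcl2, which blocks apoptosis, had 6.61 to 7.03 in PAX5-P80R and 7.16 to 7.61 in PAX5-G183V (-0.61 ± 0.09, adjusted p = 1.80e-05), and PAX5-P80R was not called apart from PAX5-Δ2-6 (0.03 ± 0.09). A second, dimmer probe set of Bcl2 gave -0.05 and was not called.

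A second set of genes was lower in PAX5-P80R than in PAX5-G183V but above PAX5-Δ2-6. Fcgr2b, the inhibitory IgG receptor of B cells, had 5.34, 5.92 and 6.42 in PAX5-P80R and 8.00, 8.82 and 8.99 in PAX5-G183V. The arrays did not overlap (-2.61 ± 0.30, adjusted p = 1.92e-07), yet PAX5-P80R lay 1.46 ± 0.29 above PAX5-Δ2-6 (adjusted p = 0.00144), whose arrays spanned 4.05 to 5.02. Ablim1, an actin-binding LIM protein, was at 5.70, 6.17 and 6.77 in PAX5-P80R and at 7.12, 8.15 and 8.49 in PAX5-G183V. Its difference was -1.52 ± 0.23 (adjusted p = 2.28e-05), and PAX5-P80R exceeded PAX5-Δ2-6 by 1.02 ± 0.22 (adjusted p = 0.00313). Traf5, an adaptor of TNF receptors, differed by -0.55 ± 0.08 (adjusted p = 2.22e-05). It lay between 7.51 and 7.82 in PAX5-P80R, between 8.06 and 8.40 in PAX5-G183V and between 6.61 and 7.00 in PAX5-Δ2-6, so the 3 groups did not overlap.

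Rasgrf2, an exchange factor for RAS proteins, had 5.17 to 6.09 in PAX5-P80R and 5.85 to 6.79 in PAX5-G183V. These ranges overlapped, and the fitted difference was -0.94 ± 0.12 (adjusted p = 2.86e-06), with PAX5-P80R 0.81 ± 0.12 above PAX5-Δ2-6. The choline transporter gene Slc44a2 (-0.96 ± 0.13, adjusted p = 7.69e-06), the cytokine receptor gene Flt3 (-0.71 ± 0.14, adjusted p = 0.00189) and Hif1a, the oxygen-regulated transcription factor (-0.23 ± 0.05, adjusted p = 0.00222), were placed in the same order. In each of these 3 genes PAX5-P80R was called above PAX5-Δ2-6, by 0.50 ± 0.13, 0.51 ± 0.14 and 0.54 ± 0.05. The other, dimmer probe sets of Slc44a2 differed by -0.40 and -0.08 between PAX5-P80R and PAX5-G183V and were not called. Flt3 is a gene that PAX5 is known to repress in B cells, yet in this line its arrays had 5.89 to 7.13 in PAX5-WT and 4.55 to 5.75 in MIR. Lair1, an inhibitory collagen receptor, had 4.83 to 5.64 in PAX5-P80R and 5.89 to 6.15 in PAX5-G183V (-0.96 ± 0.19, adjusted p = 0.00105). Nrros, a protein that regulates reactive oxygen and TGF-beta, had 5.53 to 6.63 in PAX5-P80R and 6.78 to 7.30 in PAX5-G183V (-0.98 ± 0.16, adjusted p = 8.60e-05). Neither Lair1 (0.40 ± 0.18) nor Nrros (0.44 ± 0.15) was called above PAX5-Δ2-6 in PAX5-P80R.

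Promoter sequence is shown for Cd36, which had the largest fall, for Ackr3, which was higher in PAX5-P80R, and for Ablim1, chosen after the search as a called gene with a window that holds the string. The windows run from 250 bases before to 50 after the RefSeq start (build GRCm38.p6), 5′ to 3′ on the strand of the gene. Capitals mark GTCACGC, the reverse complement of GCGTGAC, which is part of the published consensus bound by the paired domain. Ablim1 lies on the minus strand at chr19:57274619-57274918, Cd36 on the minus strand at chr5:17835847-17836146 and Ackr3 on the plus strand at chr1:90203730-90204029. For Ablim1 this is 1 of 5 windows, one for each annotated start.
Ablim1: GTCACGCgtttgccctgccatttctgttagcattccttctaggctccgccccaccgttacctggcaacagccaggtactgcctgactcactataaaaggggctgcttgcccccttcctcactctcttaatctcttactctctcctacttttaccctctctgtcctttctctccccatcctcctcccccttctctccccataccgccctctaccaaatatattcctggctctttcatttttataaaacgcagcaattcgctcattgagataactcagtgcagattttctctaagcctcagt
Cd36: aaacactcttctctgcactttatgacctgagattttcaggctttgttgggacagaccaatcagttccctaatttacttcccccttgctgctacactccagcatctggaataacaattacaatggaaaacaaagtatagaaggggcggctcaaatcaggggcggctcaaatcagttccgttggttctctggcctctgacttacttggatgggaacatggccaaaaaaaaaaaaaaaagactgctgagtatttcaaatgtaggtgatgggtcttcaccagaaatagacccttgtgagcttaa
Ackr3: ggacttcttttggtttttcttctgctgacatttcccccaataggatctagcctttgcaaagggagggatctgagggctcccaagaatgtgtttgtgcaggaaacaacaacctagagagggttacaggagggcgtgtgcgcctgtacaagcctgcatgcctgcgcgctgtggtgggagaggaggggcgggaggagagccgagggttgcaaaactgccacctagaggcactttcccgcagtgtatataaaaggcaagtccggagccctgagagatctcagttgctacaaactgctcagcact
The Ablim1 window holds the string at its first base, and the windows of Cd36 and Ackr3 hold neither GCGTGAC nor GTGACC on either strand. No match says only that these letters are not in this window.

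Among genes with a promoter window, GCGTGAC on either strand was found for 22 of 361 genes lower in PAX5-P80R (6.09%), for 8 of 224 higher genes (3.57%) and for 484 of 13605 genes tested (3.56%). The looser string GCGTNAC, whose matches include those of GCGTGAC, was found for 11.08%, 9.82% and 9.88% of the same sets. GTGACC, which shares its first 5 letters with the end of GCGTGAC, was found for 16.62%, 14.29% and 17.89%. Over all 32851 windows the shares were 2.09%, 5.96% and 14.92%. These shares are descriptions of letters in short windows and say nothing about binding.

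Some genes that wild-type PAX5 turns on were not lower in PAX5-P80R. Nav3, a microtubule-binding protein of migrating cells, had 8.44, 9.13 and 9.69 in PAX5-P80R and 7.44, 7.77 and 9.37 in PAX5-G183V. The groups overlapped, and the difference of 0.74 ± 0.41 was not called (adjusted p = 0.358). Against PAX5-Δ2-6, at 3.76 to 4.41, PAX5-P80R was higher by 5.07 ± 0.39 and PAX5-G183V by 4.33 ± 0.41; both comparisons use the same PAX5-Δ2-6 arrays. Ets1, a transcription factor of lymphocytes that restrains plasma cell differentiation, was higher in PAX5-P80R, with 5.78, 6.71 and 7.55, against 5.08, 5.42 and 5.79 in PAX5-G183V. The highest PAX5-G183V array just overlapped the lowest PAX5-P80R array, and the difference was 1.13 ± 0.22 (adjusted p = 0.00140). In isolation batch 1 it was 0.56 ± 0.27 and not called (adjusted p = 0.451). In isolation batch 2 it was 1.69 ± 0.25 (adjusted p = 1.94e-05), and the difference between batches was not called (adjusted p = 0.176). Other probe sets of Ets1 gave differences from 0.58 to 1.45. Ets1 arrays had 6.00 to 6.76 in PAX5-WT, 3.00 to 4.16 in PAX5-Δ2-6 and 3.16 to 4.45 in MIR. Lca5, a cilium protein gene, was not called (-0.01 ± 0.07, adjusted p = 0.980) although it exceeded PAX5-Δ2-6 with both constructs, by 0.47 ± 0.07 in PAX5-P80R and 0.48 ± 0.07 in PAX5-G183V. Irgm1, an interferon-inducible GTPase, was higher in PAX5-P80R by 0.38 ± 0.08 (adjusted p = 0.00214) and lay above PAX5-Δ2-6 by 1.37 ± 0.07 in PAX5-P80R and by 0.99 ± 0.08 in PAX5-G183V.

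Several genes that wild-type PAX5 lowers were higher in PAX5-P80R. Asb9, a substrate adaptor of a ubiquitin ligase, had 6.29, 6.80 and 7.18 in PAX5-P80R and 5.16, 5.28 and 5.60 in PAX5-G183V. The groups did not overlap (1.35 ± 0.17, adjusted p = 8.39e-07), and both lay below PAX5-Δ2-6, at 8.64 to 8.92, with differences of -2.00 ± 0.16 for PAX5-P80R and -3.35 ± 0.17 for PAX5-G183V. PAX5-WT arrays had 4.75 to 6.13 and MIR arrays 8.41 to 9.29. Ly6c1, a surface antigen of plasma cells, was at 8.36, 8.54 and 8.73 in PAX5-P80R and at 7.75, 8.02 and 8.31 in PAX5-G183V. It was higher by 0.54 ± 0.09 without overlap (adjusted p = 0.000281). Cd44, the hyaluronan receptor, was higher by 0.42 ± 0.08 (adjusted p = 0.000572), at 10.76 to 11.06 in PAX5-P80R and 10.37 to 10.60 in PAX5-G183V. PAX5-P80R did not differ from PAX5-Δ2-6 beyond error for Cd44 (-0.07 ± 0.08, adjusted p = 0.770). Ly6d, a surface marker of early lymphoid cells, and Usp2, a deubiquitinase, were higher by 0.64 ± 0.12 and 0.41 ± 0.10 (adjusted p = 0.000875 and 0.0133). Mycn, which encodes a MYC family protein, had a median of 12.61 in PAX5-P80R and 12.32 in PAX5-G183V, with overlapping arrays and a difference of 0.45 ± 0.15 that was not called (adjusted p = 0.0872). With each group and isolation batch given its own level, Mycn was called in both batches, by 0.42 ± 0.10 in isolation batch 1 (adjusted p = 0.0408) and 0.58 ± 0.09 in isolation batch 2 (adjusted p = 0.000103).

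The genes that wild-type PAX5 moves were then taken as a whole. They were selected on the 14 PAX5-WT and MIR arrays alone, none of which is a PAX5-P80R or PAX5-G183V array. In that selection 675 genes were higher (3.95%) and 529 lower (3.09%) in PAX5-WT than in MIR. The calls counted next come from the fit over all arrays. There the same 14 arrays enter each gene's spread and the plate and batch terms, so these counts are not independent of the selection. Of the 675, 194 were lower in PAX5-P80R than in PAX5-G183V (28.7%, where 2.62% of all genes were), 13 were higher and 468 were not called. The 529 split into 71 higher in PAX5-P80R (13.4%, where 1.64% of all genes were), 7 lower and 451 not called. Median differences were -0.17 for the 675 genes and 0.09 for the 529, beside -0.01 for all genes. Restricting to genes that PAX5-WT moved at least 1.5-fold, 58 of 107 raised genes were lower in PAX5-P80R, 5 were higher and 44 were not called, and 12 of 41 lowered genes were higher, 1 was lower and 28 were not called. The medians were -0.45 and 0.30. The remaining called genes, 247 lower and 196 higher in PAX5-P80R, were not called between PAX5-WT and MIR.

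**Figure D3:**
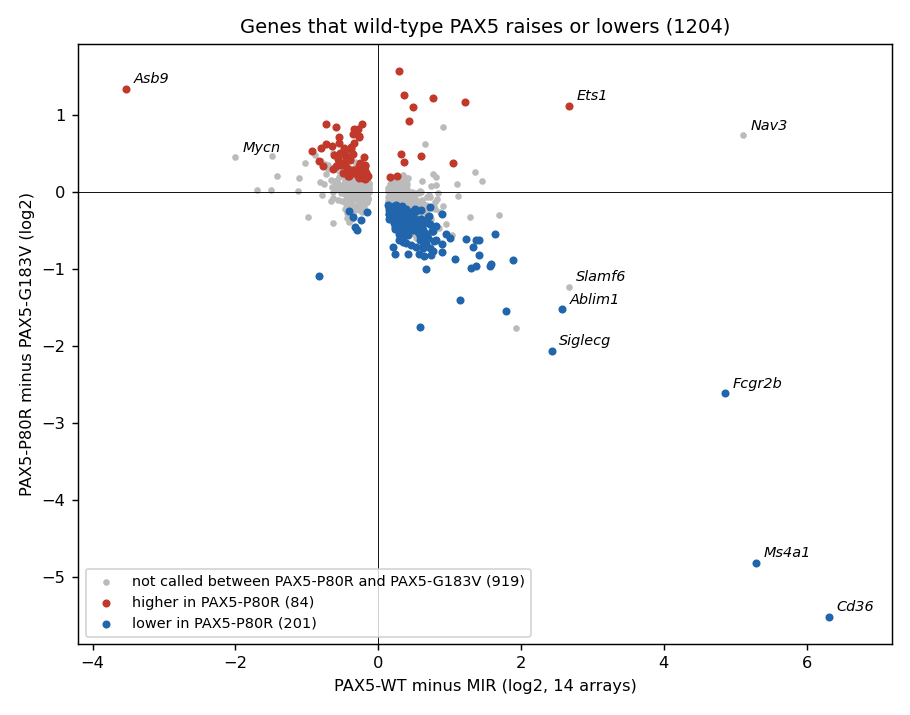
Difference between PAX5-WT and MIR (x axis, log2, from those 14 arrays) against the difference between PAX5-P80R and PAX5-G183V (y axis, log2) for the 675 genes that PAX5-WT raises and the 529 that it lowers. Blue genes were lower and red genes higher in PAX5-P80R. Cd36, Ms4a1 and Fcgr2b lie far below 0, while Nav3 and Ets1 lie above it.

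Averaged over the 675 raised genes, the arrays had a mean level of 7.303 ± 0.058 in PAX5-P80R and 7.504 ± 0.0656 in PAX5-G183V (SD, n = 6 and 7). PAX5-P80R arrays spanned 7.24 to 7.37 and PAX5-G183V arrays 7.43 to 7.58, without overlap. The difference was -0.20, and an exact two-sided permutation of the labels within isolation batches gave p = 0.00143, the smallest that its 700 permutations can give. For the 529 lowered genes the mean level was 8.065 ± 0.0577 in PAX5-P80R and 7.952 ± 0.0543 in PAX5-G183V, a difference of 0.11 (p = 0.00143 by the same exact permutation). Here the ranges overlapped over both batches, from 7.98 to 8.13 in PAX5-P80R and from 7.87 to 8.01 in PAX5-G183V, but not within a batch. In isolation batch 1 the differences were -0.16 and 0.11 (exact p = 0.1 each, the smallest that 3 against 3 arrays can give), and in isolation batch 2 they were -0.22 and 0.11 (exact p = 0.0286 each, the smallest for 3 against 4). On plate 2 alone they were -0.23 and 0.11 (exact p = 0.0250 each, the smallest of 40 permutations). Which of the constructs was present at the higher level was not measured, and its part in these differences was not tested.

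**Figure D4:**
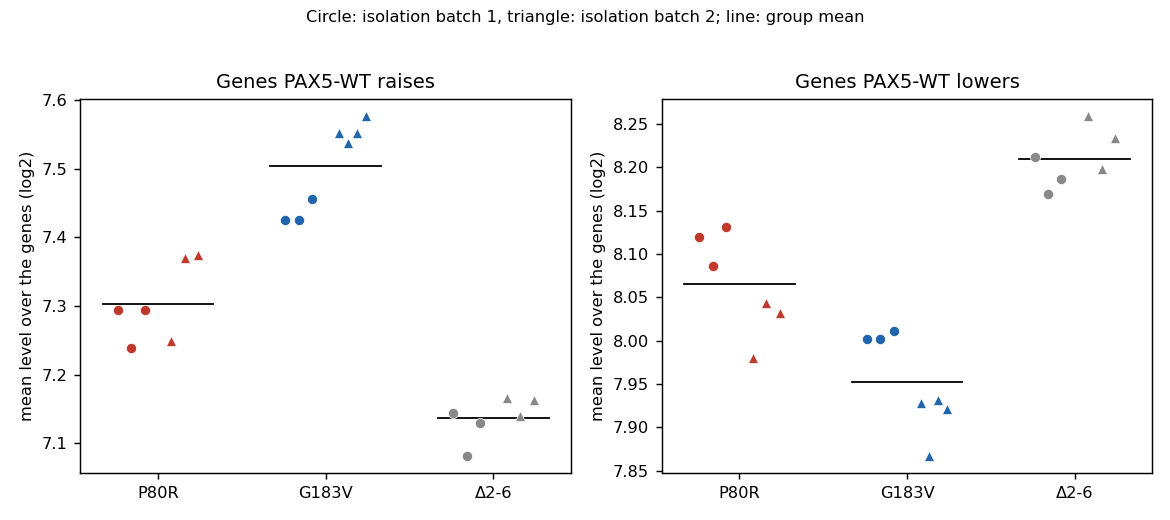
Mean level (log2) of the genes that PAX5-WT raises and of those that it lowers, 1 point an array and bars for group means, with the isolation batch marked. The mean of PAX5-P80R lies between those of PAX5-G183V and PAX5-Δ2-6 for both sets.

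The values against PAX5-Δ2-6 place the constructs further; both comparisons share the PAX5-Δ2-6 arrays. Of the 107 genes that PAX5-WT raised at least 1.5-fold, 46 were higher in PAX5-P80R than in PAX5-Δ2-6, with a median difference of 0.36. For PAX5-G183V the count was 94 and the median 0.76. Of the 41 genes lowered at least 1.5-fold, 23 were lower in PAX5-P80R than in PAX5-Δ2-6 (median -0.37) and 31 in PAX5-G183V (median -0.63). Over all 17097 genes, 1.95% were higher and 1.36% lower in PAX5-P80R than in PAX5-Δ2-6, and 3.35% were higher and 1.64% lower in PAX5-G183V. Among all 675 raised genes, 126 were higher and 4 lower in PAX5-P80R, and 367 were higher and 0 lower in PAX5-G183V.

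A further set of genes had its highest mean level in PAX5-P80R among the groups shown. Ackr3, a chemokine receptor that scavenges CXCL12, had 5.75, 5.99 and 6.29 in PAX5-P80R and 3.71, 3.92 and 4.10 in PAX5-G183V. The groups were well apart (2.06 ± 0.10, adjusted p = 1.52e-17), and PAX5-Δ2-6, PAX5-WT and MIR arrays spanned 3.78 to 4.36, 3.83 to 4.34 and 3.86 to 4.17. Ctsw, a cysteine protease of cytotoxic lymphocytes, had 5.85, 6.57 and 6.89 in PAX5-P80R and 4.04, 4.31 and 4.72 in PAX5-G183V. It was higher by 2.06 ± 0.14 (adjusted p = 2.73e-13), again without overlap with any array of PAX5-Δ2-6 (4.02 to 4.73), PAX5-WT (3.94 to 4.52) or MIR (4.27 to 4.61). Between PAX5-WT and MIR neither gene was called, with differences of 0.04 for Ackr3 and -0.19 for Ctsw.

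Ipmk, an inositol phosphate kinase, had 9.45, 10.06 and 10.60 in PAX5-P80R and 8.61, 9.13 and 9.26 in PAX5-G183V (1.11 ± 0.15, adjusted p = 4.18e-06). Its other probe sets gave 1.92 and 0.90. Inpp4b, a phosphatase of inositol lipids, had 5.14 to 5.89 in PAX5-P80R and 4.40 to 4.81 in PAX5-G183V (0.92 ± 0.12, adjusted p = 1.02e-06), although its second, dim probe set gave 0.02. Dync1i1, a chain of the dynein motor, had 8.99 to 9.17 in PAX5-P80R and 7.76 to 8.35 in PAX5-G183V (0.89 ± 0.08, adjusted p = 3.23e-09). For these 3 genes no PAX5-G183V array reached the lowest PAX5-P80R array, and PAX5-P80R exceeded PAX5-Δ2-6 by 1.51 ± 0.14, 0.95 ± 0.11 and 0.84 ± 0.08.

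Pdlim2, an adaptor of the cytoskeleton and of ubiquitin ligation, was higher by 0.87 ± 0.09 (adjusted p = 3.38e-08). Ifi44l, an interferon-induced gene, had 7.24 to 7.57 in PAX5-P80R and 5.33 to 6.59 in PAX5-G183V (1.17 ± 0.23, adjusted p = 0.000933). It was also higher in PAX5-WT (5.96 to 6.75) than in MIR (4.01 to 5.91). Themis2, a signalling adaptor of B cells, was higher by 0.66 ± 0.08 (adjusted p = 1.14e-06), Mlx, a partner in the MYC network, by 0.73 ± 0.09 (adjusted p = 2.37e-06) and Abcd2, a peroxisomal fatty acid transporter, by 0.89 ± 0.18 (adjusted p = 0.00173).

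Several genes had their lowest mean level in PAX5-P80R among the groups shown. Id3, an inhibitor of E proteins, had 6.62 to 6.83 in isolation batch 1 and 5.67 to 6.00 in isolation batch 2 in PAX5-P80R, against 7.55 to 7.69 and 8.12 to 8.41 in PAX5-G183V. The groups were apart in both batches (-1.74 ± 0.21, adjusted p = 2.41e-07), and the difference of PAX5-P80R from PAX5-Δ2-6, -0.65 ± 0.20, was not called (adjusted p = 0.0637). Klra17, a lectin-like receptor, was at 7.33 to 9.27 in PAX5-P80R and 8.87 to 9.85 in PAX5-G183V (-1.09 ± 0.14, adjusted p = 3.31e-06), and both were below PAX5-Δ2-6, at 9.67 to 10.49. Mx1, an interferon-induced antiviral GTPase, was lower in PAX5-P80R (-0.59 ± 0.10, adjusted p = 0.000168), and its differences from PAX5-Δ2-6 were -0.59 ± 0.10 for PAX5-P80R and -0.01 ± 0.10 for PAX5-G183V. Ifi209, an interferon-inducible gene of the p200 family, lay at 5.23 to 5.92 in PAX5-P80R and 6.27 to 6.59 in PAX5-G183V (adjusted p = 4.43e-06), although its second, dim probe set gave -0.01. Fgf21, a hormone of the FGF family, was lower in PAX5-P80R (-0.92 ± 0.23, adjusted p = 0.0119), with overlapping arrays.

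Lists of pathway genes and of B cell genes put these members in context, and most listed genes were not called. Among 25 targets that PAX5 activates in B cells, Siglecg and Id3 were lower and 23 did not pass, beside 4.26% called among all genes. The median of the list was -0.02. Among 27 that PAX5 represses, Ly6d, Tnfrsf19 and Xbp1 were higher, Flt3 was lower and 23 did not pass (median 0.03). Tnfrsf19 (0.39 ± 0.11, adjusted p = 0.0379) was near the floor, at 3.78 to 4.52 in PAX5-P80R and 3.44 to 3.96 in PAX5-G183V. The other probe sets of Tnfrsf19 gave 0.05 and 0.07 and were not called. Of 25 B lineage transcription factors, Ets1 was higher, Id3 and the E protein gene Tcf3 were lower and 22 did not pass (median -0.02). The difference of Tcf3 was small (-0.19 ± 0.05, adjusted p = 0.0365), and its call was lost in 6 of 13 fits with 1 array left out. Other probe sets of Tcf3 gave -0.187 and -0.190 and were not called. Of 24 genes of B cell receptor signalling, Fcgr2b and Siglecg were lower, both inhibitory receptors, and 22 did not pass (median -0.08). Of 18 Fc and inhibitory receptors, Fcgr2b, Siglecg and Lair1 were lower and 15 did not pass (median -0.05). Of 16 ETS factors, Ets1 was higher, Elk3 was lower (-0.46 ± 0.08) and 14 did not pass (median -0.06).

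Of 14 plasma cell identity genes, Ly6c1 and Xbp1 were higher and 12 did not pass (median 0.11), beside 4.26% called among all genes. An unadjusted p under 0.05 was found for 7 of the 14, and for 17.3% of all genes. Xbp1, the regulator of secretion, was at 13.21 to 13.40 in PAX5-P80R and 13.03 to 13.24 in PAX5-G183V (0.21 ± 0.04, adjusted p = 0.000731), and its other probe sets gave 0.46, 0.32 and 0.20. Of 22 genes of the unfolded protein response, Pdia4 (0.21 ± 0.06) and Dnajb9 (0.20 ± 0.05) were higher, Atf6 (-0.29 ± 0.08) and Atf4 (-0.16 ± 0.04) were lower and 18 did not pass (median -0.02); 8 had an unadjusted p under 0.05. A second probe set of Atf6, at a mean level of 7.77, gave 0.04 and was not called, and the call of Atf6 was lost with the mean of all probe sets. Leaving out 1 array at a time ended the call of Pdia4 in 8 of 13 fits, of Atf6 in 4, of Dnajb9 in 2 and of Atf4 in 1. Other choices ended the call of Pdia4 in 12 of 18 fits, of Dnajb9 in 10, of Atf4 in 9 and of Atf6 in 8. Pdia4 folds proteins, Dnajb9 is a chaperone cofactor, and Atf6 and Atf4 are transcription factors of the response. None of 5 immunoglobulin genes was called, with 0 at an unadjusted p under 0.05 (median 0.04).

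Of 16 genes of MHC class II presentation, 4 were higher and 12 did not pass (median 0.04), beside 1.64% called higher among all genes. H2-Aa, an MHC class II alpha chain, was higher by 1.22 ± 0.33 (adjusted p = 0.0255), H2-Ea by 0.72 ± 0.22 (adjusted p = 0.0472), the invariant chain gene Cd74 by 0.47 ± 0.14 (adjusted p = 0.0426) and the beta chain gene H2-Eb1 by 0.29 ± 0.07 (adjusted p = 0.00994). Their arrays overlapped between the groups. In isolation batch 1 none of the 4 was called, with differences of 0.05 for H2-Aa, 0.02 for H2-Ea, 0.14 for Cd74 and 0.13 for H2-Eb1, and in isolation batch 2 all 4 were, with 2.38, 1.45, 0.83 and 0.46. The difference between batches was called for 3 of the 16 genes (H2-Aa, H2-Ea and H2-Ab1), where it was for 0.269% of all genes, and not for Cd74 (adjusted p = 0.0766) or H2-Eb1 (adjusted p = 0.196). Leaving out 1 array at a time ended the call of H2-Ea and of Cd74 in 10 of 13 fits each, and that of H2-Aa in 4.

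The counts of the next lists stand beside 4.26% called among all genes. Of 24 interferon response genes, Epsti1 and Irgm1 were higher, Mx1 was lower and 21 did not pass (median -0.03). Epsti1 was higher by 0.92 ± 0.15 (adjusted p = 9.60e-05). Of 16 chemokines and their receptors, Ackr3 was higher and 15 did not pass (median 0.01). Of 17 adhesion and migration genes, Cd44 and the integrin gene Itgb1 (0.38 ± 0.09) were higher and 15 did not pass (median 0.04). Of 18 genes of the BCL2 family and p53 targets, Bcl2 and Zmat3 (-0.26 ± 0.07) were lower and 16 did not pass. Of 22 genes of the MYC network and ribosome biogenesis, Mlx and the MYC antagonist Mxd1 (0.44 ± 0.11) were higher and 20 did not pass. Of 17 glycolysis and hypoxia genes, Hif1a was lower and 16 did not pass (median -0.06). Rrm2, a subunit of ribonucleotide reductase, was the called gene among 28 of the cell cycle (0.22 ± 0.05, adjusted p = 0.00695).

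Among 14 Groucho co-repressors and chromatin partners, Tle1, a Groucho protein, was lower (-0.35 ± 0.09, adjusted p = 0.0163) and 13 did not pass, beside 4.26% called among all genes. It had 7.34 to 7.88 in PAX5-P80R and 7.62 to 8.05 in PAX5-G183V, with overlap. No gene was called among 18 of cholesterol synthesis, 13 glucose and energy restraint genes linked to PAX5 and 24 of the SLAM and TNF receptor families, where 0, 1 and 2 genes had an unadjusted p under 0.05. In the first of these lists Fdps, a synthase of the pathway, had a difference of -0.26 ± 0.13, and in the second Txnip, a restrainer of glucose uptake, had -0.27 ± 0.13. Slamf6, a lymphocyte receptor, was at 4.70, 5.06 and 5.32 in PAX5-P80R and at 5.90, 6.44 and 7.09 in PAX5-G183V. Its arrays did not overlap, but the difference of -1.23 ± 0.40 was not called in the fit over all arrays (adjusted p = 0.0743), whose spread for this gene includes PAX5-WT arrays from 6.25 to 9.65. With each group and isolation batch given its own level, Slamf6 was called in both batches. The differences were -1.79 ± 0.27 in isolation batch 1 (adjusted p = 0.000158) and -0.99 ± 0.25 in isolation batch 2 (adjusted p = 0.0110). Of 25 genes named in earlier results of these arrays, 7 were higher, 9 lower and 9 did not pass; that list was chosen on these samples and is not independent evidence. Klhl14, a cullin adaptor on it, was lower (-0.50 ± 0.09, adjusted p = 0.000409). Among those that did not pass were Tspan15 (0.19 ± 0.08), Zc3h12c (-0.06 ± 0.11) and Fam111a (-0.18 ± 0.11).

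The differences were compared between the isolation batches, which hold different transductions of the same constructs. With each group and batch fitted on its own, isolation batch 1 gave 124 genes (0.725%) and isolation batch 2 gave 986 (5.77%). Of these, 75 were called in both, all in the same direction. Of the 728 genes called over both batches, 726 had the same sign in each. The 728 were called on these same arrays, so the like sign is largely set by that choice. The difference between batches was called for 46 genes (0.269%; 1781 genes, 10.4%, at an unadjusted p under 0.05), and 24 of the 46 had opposite signs in the batches. The batch is confounded with the transduction numbers, so RNA isolation and transduction cannot be told apart.

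Trib2, a pseudokinase, was the clearest case, with 3.75 to 3.95 in the PAX5-P80R arrays of isolation batch 1 and 6.25 to 6.85 in those of isolation batch 2. PAX5-G183V arrays had 3.55 to 3.95 in isolation batch 1 and 3.38 to 3.87 in isolation batch 2. The difference was therefore 0.13 ± 0.15 in isolation batch 1 and 2.96 ± 0.13 in isolation batch 2, and 1.57 ± 0.33 over both (adjusted p of the batch difference 1.66e-11). A second probe set of Trib2 gave 0.30 over both batches. H2-Aa had 4.13 to 4.36 and 6.72 to 7.34 in PAX5-P80R, against 4.15 to 4.25 and 4.61 to 4.75 in PAX5-G183V. That is 0.05 ± 0.16 in isolation batch 1 and 2.38 ± 0.15 in isolation batch 2. H2-Ea followed with 0.02 ± 0.16 and 1.45 ± 0.14. No such levels were seen in the isolation batch 2 arrays of PAX5-Δ2-6, at 3.56 to 3.65 for Trib2, 4.13 to 4.22 for H2-Aa and 5.31 to 5.55 for H2-Ea.

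For 5 other named genes the difference between batches was also called. Pip5k1b, a lipid kinase, had a difference of 0.61 ± 0.19 in isolation batch 1, which was not called (adjusted p = 0.157), and of 1.88 ± 0.17 in isolation batch 2, and over both it was higher by 1.27 ± 0.19 (adjusted p = 2.22e-05). Id3 was lower in both batches, with differences of -0.83 ± 0.16 and -2.42 ± 0.14, and Klra17 likewise, with -0.52 ± 0.09 and -1.63 ± 0.08. P2ry10, a lysophospholipid receptor of lymphocytes, varied within PAX5-G183V instead, at 6.11 to 6.57 in isolation batch 1 and 3.53 to 3.85 in isolation batch 2, with PAX5-P80R at 2.88 to 3.38 in both. Its difference was -3.46 ± 0.40 in isolation batch 1 and -0.64 ± 0.36 in isolation batch 2, where it was not called, and -1.76 ± 0.57 over both (adjusted p = 0.0757). Rbms1, an RNA-binding protein, had differences of 0.40 ± 0.11 in isolation batch 1, which was not called (adjusted p = 0.0926), and of -1.05 ± 0.10 in isolation batch 2.

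**Figure D5:**
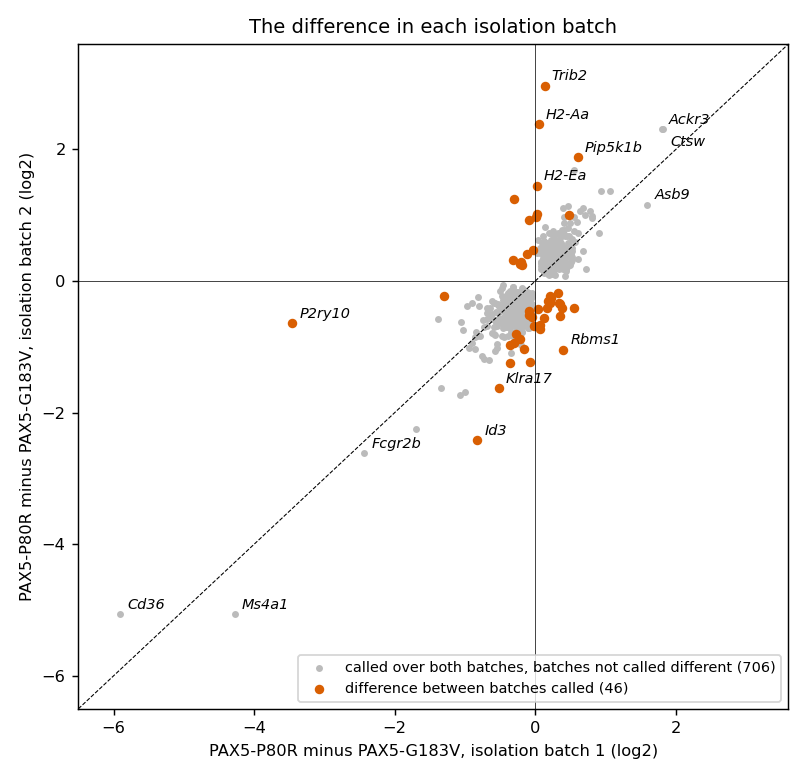
Difference between PAX5-P80R and PAX5-G183V (log2) in isolation batch 1 (x axis) and in isolation batch 2 (y axis) for genes called over both batches or called for the difference between batches; the dashed line marks equal differences. Trib2, H2-Aa and H2-Ea lie near 0 in isolation batch 1 and well above it in isolation batch 2, whereas Cd36, Ms4a1, Ackr3 and Ctsw lie near the line.

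Among probe sets naming no gene or several, 185 of 16243 were called in a test of their own (1.14%). Probe set 1457271_PM_at averaged 6.43 in PAX5-P80R and 3.95 in PAX5-G183V (2.54 ± 0.26, adjusted p = 1.64e-08). Probe set 1441317_PM_x_at averaged 4.29 in PAX5-P80R and 6.76 in PAX5-G183V (-2.49 ± 0.18, adjusted p = 3.11e-12). Probe sets 1417185_PM_at and 1434864_PM_at were lower, with differences of -1.89 ± 0.17 and -1.49 ± 0.17, and 1434194_PM_at averaged 5.06 in PAX5-P80R and 5.99 in PAX5-G183V.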

How the data were processed

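Total RNA of transduced J558LuM cells was hybridised to 3' expression arrays, 1 array a transduction. The authors deposited log2 signals for each probe set. RMA is named in the submitters' processing notes, while its version is not given in the sources available. The values were not normalized again. A single gene is named for 28898 of 45141 probe sets, several genes for 551 and no gene for 15692, and for each of 17097 genes the brightest probe set (by its mean) was kept. The labels gave the groups, plates, isolation batches and replicate numbers.

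In R 4.3.3, limma 3.58.1 (with statmod 1.5.0) was fitted to all 40 arrays with terms for group, plate (2) and isolation batch (2), with Benjamini-Hochberg adjustment over all genes. A second fit gave each group and isolation batch its own level, with the plate as a term. Genes that PAX5-WT moves came from a fit of 14 arrays, and their mean levels were compared by exact permutation of labels inside each isolation batch. Same-numbered replicates of the groups did not deviate together beyond r = 0.122 (lowest 0.0881), so the numbers were not taken to pair the arrays. Array precision rests on the number of arrays. The procedure was tested on simulated data.

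Named genes were the called genes with the largest rises (up to 15) and falls (up to 15), up to 4 called members of each list (or, with none, the largest), up to 4 for the difference between batches, the genes named in earlier results, Pax5 and Cd79a, and up to 5 unnamed probe sets; 1 such gene is not reported here. The comparison, the 26 lists (484 genes, 422 measured) and the members were chosen with earlier results of these data known; no list was tested as a set. Alternatives changed the batch terms, the arrays, the probe sets, the normalization, the filter and limma's settings, and left out each array. Python 3.11.15 with pandas 2.3.3 and matplotlib 3.10.9 drew the figures, and promoters came from RefSeq tables.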

Additional observations from a re-analysis of the deposited data

Results flagged for a closer look

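Arrays that stood apart from the rest of their group were sought in 158 groups of named genes, and 6 were found, where chance gives about 1 in 20. The PAX5-P80R array with the lowest Epsti1 level, replicate 3, had 5.43, and the others 5.81 to 6.02. PAX5-P80R replicate 1 had 11.09 for Pdia4, above the 10.84 to 10.92 of the others, and PAX5-P80R replicate 6 had 3.99 for Vpreb1, above 3.66 to 3.77. In PAX5-G183V, replicate 5 had 5.33 for Ifi44l, below 6.17 to 6.59, replicate 6 had 5.16 for Klf1, above 4.48 to 4.75, and replicate 7 had 5.89 for Lair1, below 6.05 to 6.15.

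The difference between PAX5-P80R and PAX5-G183V was tested between isolation batches (batch 2 minus batch 1), and it passed for 8 of the named genes. It was larger in isolation batch 2 for Trib2 by 2.83, for H2-Aa by 2.34, for H2-Ea by 1.42 and for Pip5k1b by 1.28. The signed difference of P2ry10 rose by 2.82, from -3.46 in isolation batch 1 to -0.64 in isolation batch 2. For P2ry10 it was thus smaller in size in isolation batch 2, and PAX5-G183V is the group that varied. The signed difference was lower in isolation batch 2 for Id3 (-1.59), Rbms1 (-1.44) and Klra17 (-1.10). All rest on 3 PAX5-P80R arrays in each batch. Whether RNA isolation or the transductions differed was not tested.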

How the results depend on the processing

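The direction of every one of the 728 calls was kept in each alternative fit that also called the gene, with 0 called in the opposite direction. All these fits use the same arrays or a part of them, so like directions are largely set in advance. The share of the 728 still called ran from 0.824% with the replicate block to 99.2% with terms for 4 runs of transduction numbers. Of the 59 named genes that were called, 46 stayed called with each array left out, and 13 were lost in at least 1 such fit (Atf4, Atf6, Cd74, Dnajb9, Fgf21, H2-Aa, H2-Ea, Mxd1, Pdia4, Tcf3, Tle1, Tnfrsf19 and Zmat3). Cd36, Ms4a1, Fcgr2b, Siglecg, Camk2d and Ackr3 were called in every alternative that tested them. The count of genes called was 468 with the plate batch alone and 212 in the 13 arrays of the groups. It was 320 in the 19 arrays that share transduction numbers, 266 on plate 2 and 87 with a 1.5-fold minimum. Isolation batch 1 alone gave 109 and isolation batch 2 alone 592. Apart from the plate batch alone, fewer arrays or a stricter threshold went into these counts. The fits of isolation batches 1 and 2 had similar median standard errors (0.116 and 0.111), so array number does not separate 109 from 592. With the replicate block the count of genes called was 6, all among the 728. Over both batches 3 of 6 PAX5-P80R arrays correlated best with their own number. Taken within isolation batches, no PAX5-P80R array did, and r of same-numbered arrays lay between -0.000581 and 0.0453. Leaving out an array gave 517 (PAX5-P80R replicate 4) to 852 (PAX5-P80R replicate 3). The split of higher to lower calls was 280 to 448, and 303 to 353 after quantile normalization applied again. The count of genes that differed between isolation batches was 107 with trend and robust settings, 10 in the 13 arrays, 6 on plate 2 and 138 for genes above the median level; leaving out an array gave 17 (PAX5-G183V replicate 1) to 79 (PAX5-P80R replicate 1). The mean level of the genes that PAX5-WT raises differed by -0.161 and of those that it lowers by 0.108 in isolation batch 1 alone (exact permutation p = 0.1 each, the smallest it allows). With an array left out they differed by -0.215 to -0.188 and 0.0995 to 0.131. Other choices ended the calls of 53 of the 59 genes (replicate block), 36 (isolation batch 1 alone), 19 (13 arrays), 17 (plate 2), 15 (19 arrays), 10 (no batch terms), 9 (isolation batch 2 alone) and 5 (mean of all probe sets); Rrm2 was lost in 9 of 18 such fits, Hif1a in 7, H2-Eb1 and Usp2 in 5, and Trib2 in 5 of 17. Of 18 named genes not called, 9 were called in at least 1 alternative: Slamf6 in 10, Mycn in 5, Cd68 in 4 and Vim, Txnip, Rbms1 and Nav3 in 1 each, P2ry10 in 3 and 2 more with an array left out (PAX5-G183V replicate 5 or 6), and with an array left out also Cd68 in 1 and Cd3d in 2. The causes of these changes were not tested.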
